A study of Mus musculus with 16 samples.

Results

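The genes of iron storage and transport were followed across the 4 groups of a bulk RNA sequencing series from the mouse left ventricle. They were chosen by name, from a list of 10 entries covering uptake, storage, export, hepcidin and heme breakdown. Of these, 9 matched a gene symbol in the count table and 1 entry, "Aco1-independent", was no gene symbol. The 9 genes are Tfrc, Slc11a2, Fth1, Ftl1, Ncoa4, Slc40a1, Heph, Hamp and Hmox1, out of 57186 gene IDs in the table, and all 9 were among the 15206 genes with enough counts to be tested.

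The groups were cardiomyocyte-specific TFEB knockout mice (cKO-TFEB in the labels) after transverse aortic constriction, the same knockout after sham surgery, WT mice after constriction and WT mice after sham surgery. Transverse aortic constriction (TAC) is an operation that puts the left ventricle under pressure overload, and TFEB is known as a transcriptional activator of genes for lysosomes and autophagy. All mice had the strain label C57/BL6N and each group held 4 biological replicates. The labels used here give neither the Cre line that removed Tfeb, nor age, sex, or the time between surgery and tissue collection. Libraries held 12946878 to 16347388 counts. Levels are given as CPM, read counts set to a common library size with TMM factors, and the 4 values of a group are in the order of replicates 1 to 4. Summed levels of 10 cardiomyocyte markers ran from 38808 to 74953 CPM over the 16 libraries. Tfeb itself had 9.37 to 14.7 CPM in cKO TAC and 20.6 to 40.0 CPM in WT TAC, and 9.12 to 13.0 CPM in cKO sham against 30.9 to 40.1 CPM in WT sham. It was lower in cKO at both surgeries, with a log2 fold change of cKO over WT of -1.19 (SE 0.20, adjusted p = 0.0138) after TAC and -1.80 (SE 0.20, adjusted p = 0.000604) after sham surgery. The call after TAC was lost without WT TAC replicate 2, at -1.11 with an adjusted p of 0.0645, and with a fit of those groups alone, at -1.19 with an adjusted p of 0.0543. These bulk values came from whole ventricular tissue, in which other cells keep Tfeb, and fewer cells of a type cannot be told apart from less RNA per cell.

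Cells take up iron bound to transferrin through the transferrin receptor, and the divalent metal transporter Slc11a2 carries the iron out of the endosome. Iron that is not used is held in ferritin, a shell of heavy (Fth1) and light (Ftl1) chains, and the cargo receptor Ncoa4 takes ferritin to the lysosome so that its iron can be released. Ferroportin (Slc40a1) is the known cellular iron exporter, the ferroxidase Heph oxidises the exported iron, and hepcidin (Hamp) binds ferroportin and has it degraded. In the heart, iron is needed for the heme and iron-sulfur proteins of the respiratory chain, and free iron promotes lipid peroxidation.

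Several of these mRNAs carry iron-responsive elements, short hairpins bound by the iron regulatory proteins Aco1 and Ireb2 when iron is scarce. Binding to an element before the coding sequence blocks translation, while binding to the elements after it protects the Tfrc mRNA from decay, so that ferritin protein can change while its mRNA does not. The elements are shown because they are a sequence feature that Tfrc, the ferritins and Slc40a1 share and the choice of members did not use. A pattern search of the GENCODE M21 transcripts (GRCm38) looked for a bulged C, a stem of 5 bases, the loop CAGTGN and a paired stem of 5 bases. It matched 222 of 21901 coding genes (1.01%). Among the members it found 1 site each in the 5′ untranslated regions of Fth1, Ftl1 and Slc40a1 and 4 sites in the 3′ untranslated region of Tfrc. Capitals mark the bulged C and the loop, and each site is written 5′ to 3′ on the strand of its mRNA.
Fth1 (chr19:9982732-9982760, plus strand): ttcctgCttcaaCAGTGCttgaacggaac
Ftl1 (chr7:45459779-45459807, minus strand): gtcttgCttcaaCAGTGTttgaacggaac
Slc40a1 (chr1:45925465-45925493, minus strand): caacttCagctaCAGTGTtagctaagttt
Tfrc site 1 (chr16:32631219-32631247, plus strand): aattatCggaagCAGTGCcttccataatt
Tfrc site 2 (chr16:32631598-32631626, plus strand): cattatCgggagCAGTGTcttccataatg
Tfrc site 3 (chr16:32631663-32631691, plus strand): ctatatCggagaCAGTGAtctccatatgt
Tfrc site 4 (chr16:32631710-32631738, plus strand): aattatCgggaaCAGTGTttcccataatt

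The ferritin sites shared 26 of 29 positions with each other, and the Slc40a1 site shared 13 of 29 with either of them. The 4 Tfrc sites shared 18 to 25 of 29 positions among themselves. No site matched the pattern in Slc11a2, Ncoa4, Heph, Hamp or Hmox1. The search missed any element that departs from this stem or loop, so the lack of a match does not show that a gene has none. The data below measure mRNA and bear on no protein level or binding.

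Fth1 and Slc40a1 fell with TAC in both cKO and WT mice. Tfrc and Hmox1 rose with TAC in WT; in cKO their log2 fold changes of 0.58 and 0.52 did not pass, and no difference between the genotypes' responses was detected. A gene passed where the edgeR quasi-likelihood test gave a Benjamini-Hochberg adjusted p under 0.05 over all 15206 tested genes. By that rule 2 of 9 members passed in cKO TAC against cKO sham, where 26.5% of all tested genes did. Both were lower, against 12.4% of all tested genes that were lower and 14.2% that were higher. In WT TAC against WT sham 4 of 9 passed, where 15.8% of all tested genes did, and these were 2 higher and 2 lower, against 9.70% of all tested genes that were higher and 6.14% that were lower. The TAC and sham libraries did not overlap for 3 of 9 members in cKO, where 29.3% of all tested genes did not, and for 4 of 9 in WT, where 19.5% did not. With library totals in place of TMM scaling, 4 members passed in cKO, 2 of them higher (Tfrc and Heph) and 2 lower, where 32.2% of all tested genes passed, 4013 of them higher and 877 lower. The p-values rest on the spread between the 4 biological replicates of each group, pooled over the 4 groups in 1 fit. A library outside the 2 compared groups can therefore change a call.

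**Figure D1:**
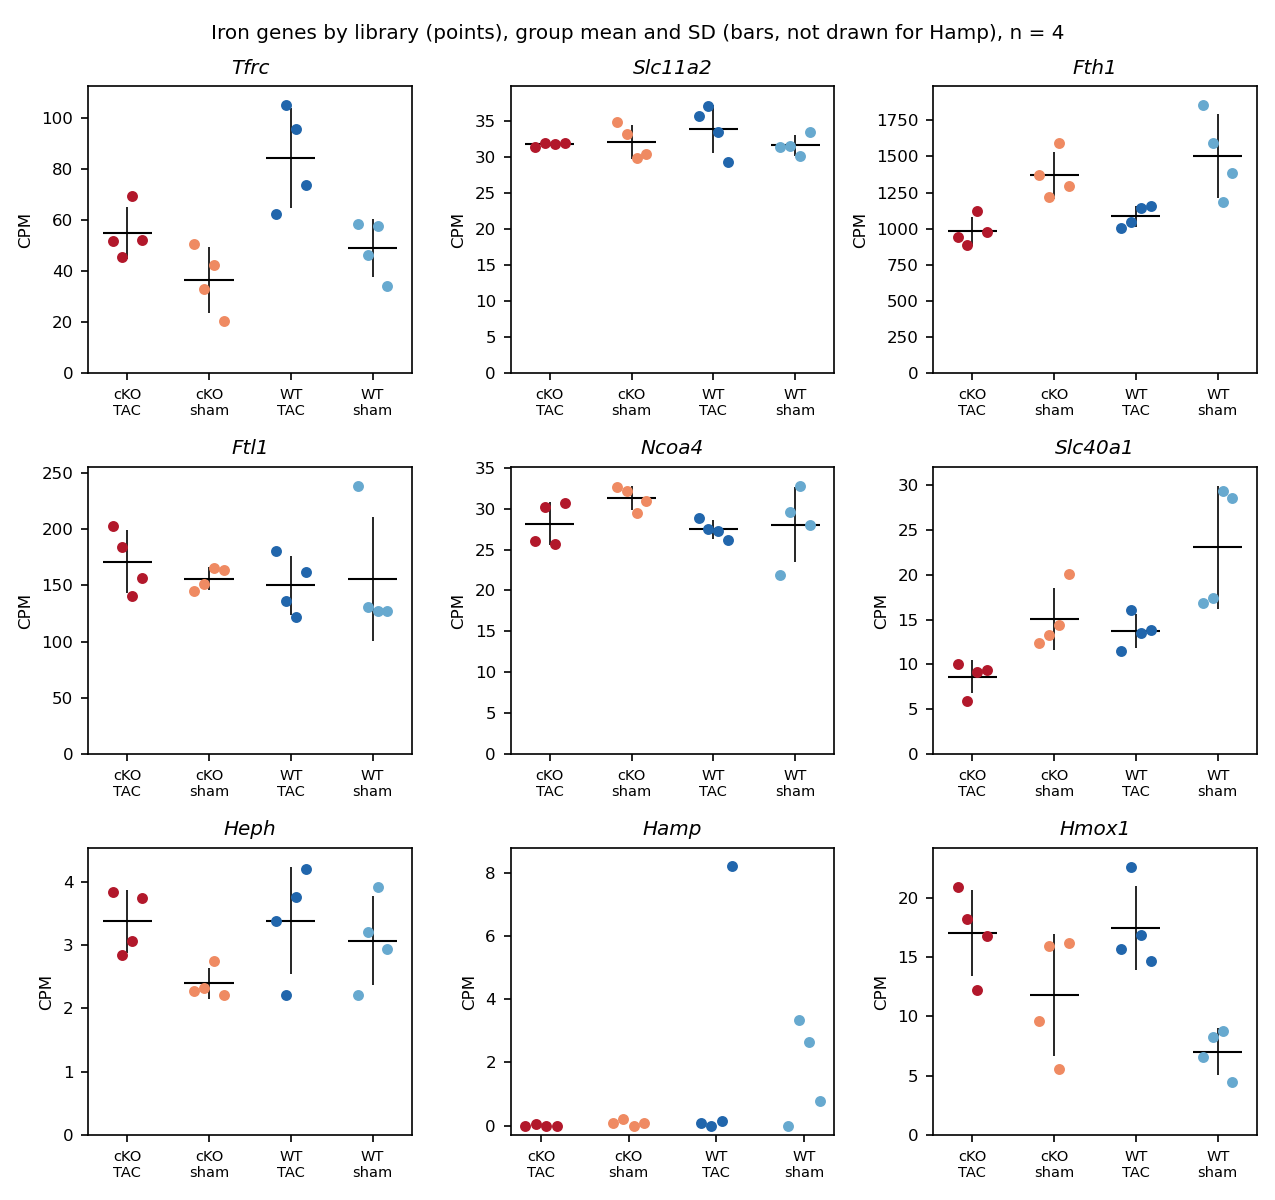
Level in CPM (vertical axes) of each of the 9 iron genes in the 4 groups, with 1 point per library, a horizontal bar at the mean and a vertical bar for the SD (n = 4, not drawn for Hamp). Fth1 and Slc40a1 sit lower in TAC than in sham libraries of the same genotype, with no overlap between TAC and sham libraries, and Hamp is near 0 except in 4 WT libraries.

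Tfrc, the receptor for transferrin-bound iron, had 52.0, 45.5, 69.4 and 52.4 CPM in cKO TAC and 50.7, 32.9, 42.5 and 20.6 CPM in cKO sham. It had 62.7, 105, 95.9 and 73.8 CPM in WT TAC and 58.6, 46.5, 57.6 and 34.0 CPM in WT sham. The WT TAC libraries all lay above the WT sham libraries, while the cKO groups overlapped. The log2 fold change of TAC over sham was 0.78 (SE 0.25, adjusted p = 0.0462, edgeR) in WT, a 1.72-fold rise, and 0.58 (SE 0.25, adjusted p = 0.101) in cKO. The WT call was close to the threshold: it was lost in 13 of 26 alternatives, among them leaving out any WT TAC replicate from 2 to 4 or WT sham replicate 1, 2 or 4, with log2 fold changes from 0.64 to 0.92 and adjusted p up to 0.137. Between genotypes, Tfrc was at -0.62 (SE 0.25, adjusted p = 0.208) in cKO TAC against WT TAC and -0.42 (SE 0.25, adjusted p = 0.461) in cKO sham against WT sham. Averaged over both surgeries it was at -0.52 (SE 0.18, adjusted p = 0.0786), which did not pass.

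Slc11a2, the transporter that takes iron out of the endosome, was nearly level. It had 31.5, 32.0, 31.8 and 31.9 CPM in cKO TAC and 34.9, 33.3, 29.9 and 30.4 CPM in cKO sham. It had 35.7, 37.1, 33.5 and 29.4 CPM in WT TAC and 31.4, 31.5, 30.1 and 33.6 CPM in WT sham. Every pair of groups overlapped, and Slc11a2 passed in no comparison.

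Fth1, the ferritin heavy chain that oxidises iron for storage, had 938, 886, 1123 and 976 CPM in cKO TAC and 1371, 1220, 1593 and 1294 CPM in cKO sham. It had 1004, 1046, 1140 and 1154 CPM in WT TAC and 1858, 1596, 1182 and 1382 CPM in WT sham. In both genotypes every TAC library lay below every sham library. Fth1 fell with TAC to 0.716 times the sham level in cKO (log2 fold change -0.48, SE 0.13, adjusted p = 0.00984, edgeR), and to 0.722 times the sham level in WT (-0.47, SE 0.13, adjusted p = 0.0184). The fall in cKO passed under all 26 alternatives. That in WT was lost without WT TAC replicate 1, at -0.44 with an adjusted p of 0.0647, and without WT sham replicate 1, at -0.35 with an adjusted p of 0.0565. The TAC responses of the 2 genotypes differed by -0.01 on the log2 scale (SE 0.18), and Fth1 did not pass between genotypes. Over 16 libraries the gene most like Fth1 was Tnnt2, cardiac troponin T, at a Pearson r of 0.96, or 0.92 with group means removed. Cardiomyocyte markers moved the same way: 6 of 10 passed as lower and none as higher in cKO TAC against cKO sham, against 12.4% lower of all tested genes. Their summed levels were 38808 to 56280 CPM after TAC against 60430 to 70705 CPM after sham surgery. In WT 2 of 10 passed as lower, against 6.14% of all tested genes, at 52917 to 63155 CPM after TAC against 62345 to 74953 CPM after sham surgery. Their part in the Fth1 result was not tested.

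Ftl1, the ferritin light chain that helps the iron core to form, passed in no comparison. It had 203, 184, 141 and 156 CPM in cKO TAC and 145, 151, 165 and 164 CPM in cKO sham. It had 181, 136, 122 and 162 CPM in WT TAC and 238, 130, 127 and 127 CPM in WT sham. The groups overlapped in both genotypes. The log2 fold change of TAC over sham was 0.13 (SE 0.18, adjusted p = 0.646) in cKO and -0.05 (SE 0.18, adjusted p = 0.880) in WT. WT sham replicate 1 stood apart at 238 CPM, and the same library had the largest share of hemoglobin counts, 0.111% against 0.0148% to 0.0516% in the other 15 libraries; the part of blood in that value was not tested. Ferritin pseudogenes with symbols of their own drew 18 to 74 counts per library, 1.08% to 2.54% of the Ftl1 counts. How many reads near-identical copies share with Ftl1 or Fth1 was not measured, so both levels are uncertain in that respect.

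Ncoa4, the receptor that delivers ferritin to the lysosome, had 26.1, 30.3, 25.6 and 30.7 CPM in cKO TAC and 32.7, 32.2, 29.5 and 30.9 CPM in cKO sham. It had 28.9, 27.5, 27.3 and 26.1 CPM in WT TAC and 21.9, 29.6, 32.8 and 28.0 CPM in WT sham. The TAC and sham libraries overlapped within each genotype, as did the cKO and WT libraries within each surgery, and Ncoa4 passed in no comparison. Averaged over both surgeries, cKO against WT differed by a log2 fold change of 0.10 (SE 0.07, adjusted p = 0.459).

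The counts of 2 genes within a library give ratios that need no scaling between libraries. For each 1000 Fth1 counts there were 55.5, 51.4, 61.8 and 53.7 Tfrc counts in cKO TAC and 37.0, 26.9, 26.7 and 15.9 in cKO sham. There were 62.4, 100.7, 84.1 and 64.0 in WT TAC and 31.5, 29.1, 48.7 and 24.6 in WT sham. Every TAC library lay above every sham library of its genotype, and every cKO TAC library lay below every WT TAC library. The mean log2 ratio was higher after TAC by 1.12 in cKO and by 1.23 in WT, and lower by -0.46 in cKO TAC against WT TAC. Each of these 3 contrasts had a two-sided exact permutation p of 0.0286, the smallest that 4 against 4 libraries allow. The adjusted p over the 8 ratio tests was 0.0762, which does not pass. With 3 of 8 tests at this smallest p, no wider separation of the libraries could have brought these contrasts under 0.05. In sham the log2 difference was -0.34 (exact p = 0.4).

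For each 1000 Fth1 counts there were on average 177 ± 42.6 Ftl1 counts in cKO TAC, 115 ± 12.0 in cKO sham, 139 ± 30.5 in WT TAC and 102 ± 20.3 in WT sham (SD, n = 4 each). The Ftl1 share was higher after TAC by 0.60 on the log2 scale in cKO (exact permutation p = 0.0571, adjusted p = 0.114) and by 0.44 in WT (exact permutation p = 0.0857, adjusted p = 0.137). Neither passed, nor did the genotype contrasts, at 0.34 (exact permutation p = 0.2) after TAC and 0.18 (exact permutation p = 0.371) after sham surgery.

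**Figure D2:**
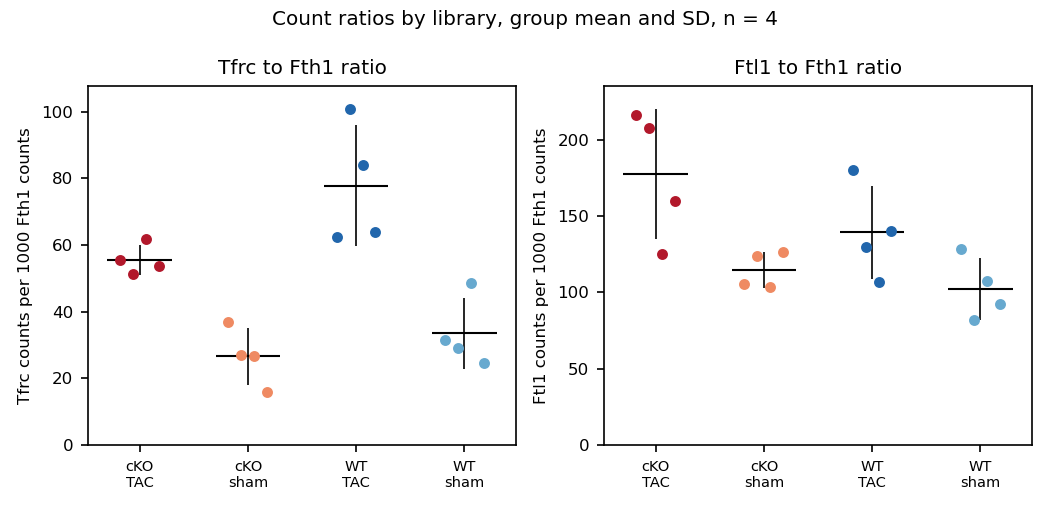
Tfrc and Ftl1 counts per 1000 Fth1 counts (vertical axes) in each of the 16 libraries, by group, with bars for the mean and SD (n = 4). The Tfrc ratio is 51.4 or more in every TAC library and 48.7 or less in every sham library, and the Ftl1 ratio overlaps between TAC and sham in both genotypes.

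Slc40a1, ferroportin, was lower both with TAC and with loss of Tfeb. It had 10.0, 5.94, 9.19 and 9.43 CPM in cKO TAC and 12.4, 13.3, 14.4 and 20.1 CPM in cKO sham. It had 11.5, 16.1, 13.5 and 13.9 CPM in WT TAC and 16.8, 17.5, 29.4 and 28.6 CPM in WT sham. No library of cKO TAC overlapped with cKO sham or with WT TAC, and none of WT TAC with WT sham; cKO sham and WT sham overlapped. With TAC it fell to 0.575 times the sham level in cKO (log2 fold change -0.80, SE 0.21, adjusted p = 0.0104, edgeR), and to 0.596 times the sham level in WT (-0.75, SE 0.21, adjusted p = 0.0205). The fall in cKO passed under all 26 alternatives. In WT it was lost without WT TAC replicate 1 (-0.67, adjusted p = 0.0735), without WT sham replicate 3 (-0.61, adjusted p = 0.0572) or without WT sham replicate 4 (-0.63, adjusted p = 0.0681), with library totals (-0.63, adjusted p = 0.0537), and without the pair of libraries richest in atrial transcripts, described below (-0.61, adjusted p = 0.0884).

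Between genotypes no member passed within a single surgery. None of 9 passed in cKO TAC against WT TAC, where 1.78% of all tested genes did, and none in cKO sham against WT sham, where 1.17% did. At an unadjusted p under 0.05 there were 3 of 9 members in either comparison, against 17.4% and 15.0% of all tested genes. These were Slc40a1, Hamp and Tfrc after TAC, and Slc40a1, Hamp and Hmox1 after sham surgery. Hamp passed the filter on low counts through WT libraries alone, so it adds no support to either count. The libraries of the genotypes did not overlap for 1 of 9 members after TAC, Slc40a1, against 10.0% of all tested genes, and for none after sham surgery, against 7.59%. DESeq2 called 2 members after TAC, Slc40a1 and Hamp, among 818 genes in all, where edgeR called 271. Hamp had 1 count summed over the cKO TAC libraries. After sham surgery DESeq2 called no member among 534 genes, where edgeR called 178. Slc40a1 stood at a log2 fold change of -0.67 (SE 0.21, adjusted p = 0.103) in cKO TAC against WT TAC and -0.62 (SE 0.20, adjusted p = 0.146) in cKO sham against WT sham.

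Averaged over both surgeries with equal weight, 2 of 9 members passed in cKO against WT, where 9.06% of all tested genes did. These were Slc40a1 and Hamp, both lower, against 4.85% of all tested genes that were lower. Hamp had more than 3 counts in only 4 libraries, all of them WT, so it passed the filter on low counts through WT alone, and its call was lost without that filter (adjusted p = 0.0742); it adds no support to the count. Slc40a1 was at 0.641 times the WT level, a log2 fold change of -0.64 (SE 0.15) with an edgeR adjusted p of 0.0135, and the call held in all 25 alternatives, with values from -0.73 to -0.57 and adjusted p up to 0.0349. The log2 fold change with TAC was -0.05 (SE 0.29) in cKO relative to WT, so no difference between the genotypes' responses was detected. Macrophages are known to be rich in ferroportin, and their markers ran the other way. Of these, 7 of 13 passed as higher in cKO against WT over both surgeries, where 640 of 15206 tested genes did. Their summed level was 423 to 618 CPM in cKO TAC, 252 to 443 CPM in cKO sham, 330 to 418 CPM in WT TAC and 176 to 278 CPM in WT sham. With TAC, 9 of 13 macrophage markers were higher in cKO and 8 of 13 in WT, against 14.2% and 9.70% of all tested genes. Other markers moved in cKO against WT over both surgeries as well. Of the cardiomyocyte markers 3 of 10 were lower and none higher, with a median log2 fold change of -0.24, against 4.85% lower of all tested genes. Of the fibroblast markers 4 of 9 were higher and none lower, with a median of 0.41, against the same 640 of 15206 genes. The part of these cell types in the Slc40a1 result was not tested.

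Heph, the ferroxidase that works with ferroportin, was a low transcript with 3.85, 2.84, 3.06 and 3.75 CPM in cKO TAC and 2.28, 2.33, 2.75 and 2.21 CPM in cKO sham. It had 3.39, 2.22, 3.76 and 4.20 CPM in WT TAC and 2.22, 3.21, 3.92 and 2.94 CPM in WT sham. The cKO TAC libraries all lay above the cKO sham libraries, while the WT groups overlapped. The log2 fold change in cKO was 0.50 (SE 0.22, adjusted p = 0.105), which did not pass. With library totals it was 0.69 with an adjusted p of 0.0310, on a scale where the median of all genes stood at 0.20.

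Hmox1, heme oxygenase, frees iron from heme and is a known stress-induced gene. It had 20.9, 18.2, 12.3 and 16.7 CPM in cKO TAC and 9.59, 15.9, 5.58 and 16.2 CPM in cKO sham. It had 15.7, 22.6, 16.8 and 14.7 CPM in WT TAC and 6.58, 8.29, 8.79 and 4.49 CPM in WT sham. All WT TAC libraries lay above all WT sham libraries. The cKO groups overlapped because 2 cKO sham libraries, at 15.9 and 16.2 CPM, lay above cKO TAC replicate 3 at 12.3 CPM. Hmox1 rose 2.47-fold with TAC in WT (log2 fold change 1.31, SE 0.29, adjusted p = 0.00747, edgeR). The call held in all 26 alternatives, at 1.14 to 1.50. In cKO it was at 0.52 (SE 0.28, adjusted p = 0.183). The difference between these responses, -0.78 (SE 0.40), had an unadjusted p of 0.0697 and an adjusted p of 0.946, so the TAC responses were not shown to differ. No member passed this interaction test, nor did any of the tested genes (0%), and no member had an unadjusted p under 0.05, against 4.70% of all tested genes; DESeq2 called 1 gene, which was no member. In cKO sham against WT sham Hmox1 was at 0.75 (SE 0.30, adjusted p = 0.234).

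**Figure D3:**
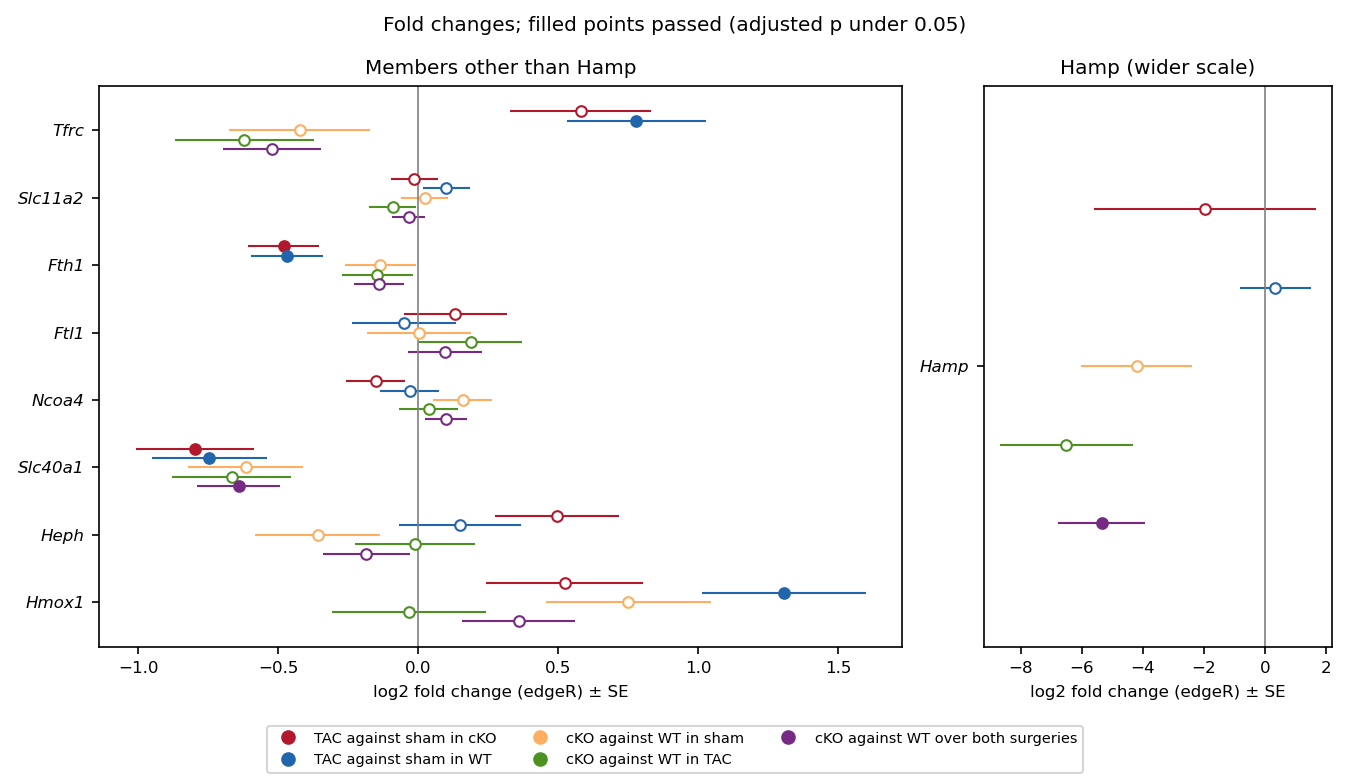
Log2 fold changes (horizontal axis) of each iron gene from the edgeR fit with bars of 1 SE, by comparison, with Hamp on a wider scale of its own; filled points passed at an adjusted p under 0.05. Fth1 and Slc40a1 lie at -0.47 to -0.80 after TAC in both genotypes, and Slc40a1 is the member other than Hamp that passed in cKO against WT over both surgeries.

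Hamp, the gene of the hormone hepcidin, is made mainly by the liver, and its transcript was close to absent in most libraries. Its raw counts were 0, 1, 0 and 0 in cKO TAC, 1, 3, 0 and 1 in cKO sham, 1, 0, 2 and 141 in WT TAC, and 0, 45, 36 and 10 in WT sham. Summed over a group these were 1, 5, 144 and 91 counts. A floor of 3 counts stood at 0.175 to 0.232 CPM in these libraries, and covers counting error only. All counts above it came from WT TAC replicate 4 and WT sham replicates 2, 3 and 4. The fitted log2 fold change of cKO against WT over both surgeries was -5.35 (SE 1.43, adjusted p = 0.0336, edgeR), a value that depends on the prior count where a group is near 0. It was lost in 11 of 23 alternatives, and without WT TAC replicate 4 it was -2.94 with an adjusted p of 0.207. Within a surgery it did not pass, at -6.50 (SE 2.18, adjusted p = 0.137) after TAC and -4.20 (SE 1.81, adjusted p = 0.293) after sham surgery.

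The 4 libraries with Hamp counts were also those with transcripts of the atrial myosin light chain Myl7. Myl7 stood at 329 CPM in WT TAC replicate 4 and at 92.3, 871 and 47.4 CPM in WT sham replicates 2, 3 and 4, against 0 to 4.66 CPM in the other 12 libraries. The 3 genes most like Hamp over the 16 libraries were Myl4, Sln and Myl7, at a Pearson r of 0.94, 0.93 and 0.93, and at 0.92, 0.90 and 0.90 with group means removed. All are known as atrial transcripts, and points of these correlations share library and depth. Hamp did not follow them in proportion: WT TAC replicate 4 had 141 Hamp counts and 5636 Myl7 counts, and WT sham replicate 3 had 36 Hamp counts and 11792 Myl7 counts. Summed atrial markers ran from 1047 to 1408 CPM in cKO TAC, 763 to 1096 CPM in cKO sham, 748 to 2194 CPM in WT TAC and 552 to 5087 CPM in WT sham. Of 7 tested, 3 were lower in cKO over both surgeries, against 4.85% of all tested genes. Their part in the Hamp result was not tested.

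**Figure D4:**
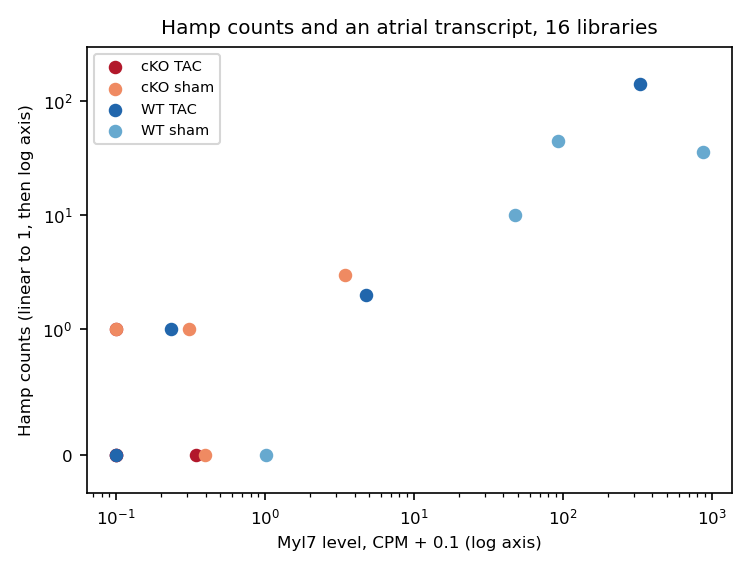
Hamp counts (vertical axis, linear to 1 and logarithmic above) against the Myl7 level in CPM plus a small offset (horizontal log axis), 1 point per library and 1 colour per group. Of the 16 libraries, 4 WT libraries lie at 10 to 141 Hamp counts and 47.4 to 871 CPM of Myl7, and the other 12 lie at 0 to 3 Hamp counts and at most 4.66 CPM.

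The other genes of iron handling were taken from lists drawn from textbook roles, chosen with earlier results of these data known. In cKO TAC against cKO sham, 15 of 23 tested genes of mitochondrial iron and iron-sulfur cluster assembly were lower and none higher, where 12.4% of all tested genes were lower. The median log2 fold change of the list was -0.33, against 0.00 over all tested genes. Isca1, a cluster carrier, was at 0.711 times, Nfs1, the cysteine desulfurase that supplies the sulfur, at 0.677 times, the chaperone Hspa9 at 0.732 times and the transporter Abcb8 at 0.679 times the sham level. In WT TAC against WT sham the list moved the same way, with a median of -0.22 against -0.01 over all tested genes. There 2 of 23 were lower, where 6.14% of all tested genes were. These were Abcb8 at 0.741 times and Isca1 at 0.832 times the sham level. The Isca1 call there was lost in 10 of 26 alternatives. In cKO the count was 9 of 23 without cKO TAC replicate 1. With library totals it was 5 of 23, a scaling under which 877 of 15206 tested genes were lower. The median of all genes rose to 0.20 under that scaling. No gene of the list passed the interaction test, so a difference between the genotypes' TAC responses was not shown. In cKO against WT over both surgeries 5 of 23 were lower and none higher, against 4.85% lower of all tested genes. Fdx1 and Abcb8, each at 0.785 times the WT level, held in all 25 alternatives. Iba57 at 0.767 times and Isca1 at 0.860 times were lost in 4 and 9 of 25. After TAC 2 of 23 were lower in cKO, against 1.78% of all tested genes that passed. These were Fdx1 at 0.713 times and Isca1 at 0.794 times, lost in 7 and 16 of 26.

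Of the heme synthesis genes, 7 of 13 were lower and none higher in cKO TAC against cKO sham, with a median of -0.35, where 12.4% of all tested genes were lower. Uros, Slc25a38, Alad and Fech, the last of which inserts iron into heme, were at 0.697, 0.737, 0.682 and 0.785 times the sham level. With library totals 2 of 13 were lower, where 877 of 15206 tested genes were. In WT the list moved the same way, with a median of -0.26 against -0.01 over all tested genes. There 1 of 13 passed, near the 6.14% of all tested genes that were lower. That call, Urod at 0.783 times the sham level, was lost in 17 of 26 alternatives. None of the 13 passed the interaction test, so a difference between the genotypes' TAC responses was not shown. In cKO against WT over both surgeries 1 of 13 was lower, against 4.85% of all tested genes. It was Slc25a38 at 0.837 times the WT level, a call lost in 14 of 25 alternatives. In cKO TAC against cKO sham the cardiomyocyte markers fell as given above, and 7 of 9 fibroblast markers were higher, against 14.2% of all tested genes. The summed fibroblast level was 3982 to 8214 CPM in cKO TAC against 1172 to 2209 CPM in cKO sham. Mitochondrially encoded genes took 16.1% to 20.4% of counts in cKO TAC against 21.9% to 24.1% in cKO sham. The part of these shifts in the heme and mitochondrial iron counts was not tested.

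**Figure D5:**
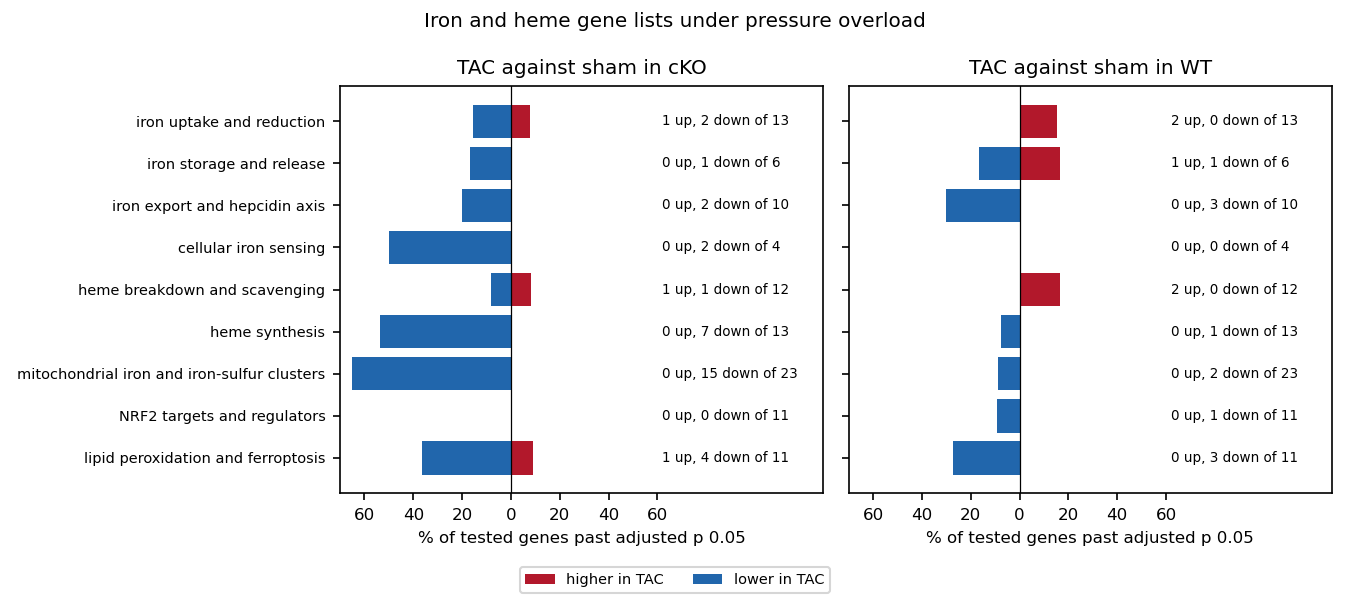
Share of the tested genes of each iron and heme list that passed as higher (bars to the right) or lower (bars to the left) in TAC against sham, for cKO on the left and WT on the right, in percent. The longest bars are those of mitochondrial iron and iron-sulfur clusters, with 15 of 23 lower, and heme synthesis, with 7 of 13 lower, both in cKO.

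The remaining lists gave counts to be read against all tested genes, of which 14.2% were higher and 12.4% lower with TAC in cKO, and 9.70% higher and 6.14% lower in WT. For iron uptake, 1 of 13 tested genes was higher and 2 lower in cKO TAC against cKO sham, at or near those shares. The metalloreductase Steap2 was at 2.79 times the sham level, the ferritin receptor Scara5 at 0.478 times and the metalloreductase Steap4 at 0.801 times. In WT 2 of 13 were higher, Tfrc and the phagosomal iron transporter Slc11a1 at 1.61 times the sham level. In cKO against WT over both surgeries Slc11a1 was at 1.47 times and Lcn2, which binds iron-laden siderophores, at 3.56 times the WT level, while the metal importer Slc39a8 was at 0.493 times. Slc39a8 also passed in cKO sham against WT sham, at 0.304 times the WT level, as 1 of 13 uptake genes where 1.17% of all tested genes passed; that call was lost in 16 of 26 alternatives, and the one over both surgeries in 9 of 25.

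Of 6 storage genes tested, Fth1 was the 1 that passed in cKO under TAC. In WT, Fth1 fell and the iron chaperone Pcbp1, which loads ferritin, rose to 1.23 times the sham level. Of 10 export and hepcidin genes, 2 were lower with TAC in cKO, Slc40a1 and Hjv at 0.640 times the sham level. In WT 3 were lower, Slc40a1, Hjv at 0.721 times and Neo1 at 0.707 times the sham level. Bmp6, the ligand known to induce hepcidin in the liver, was at 1.63 times the WT level in cKO over both surgeries. The 2 genes of this list that passed as lower there were Slc40a1 and Hamp, and the Hamp call adds no support, as given above. Of the 4 iron sensing genes, Epas1 and Fbxl5, which degrades Ireb2, were at 0.787 and 0.822 times the sham level in cKO under TAC. These calls were lost in 2 and 6 of 26 alternatives. None of the 4 passed in WT, and none passed the interaction test. Aco1 and Ireb2, the iron regulatory proteins, passed in neither genotype under TAC. Their log2 fold changes were 0.07 and 0.19 in cKO and 0.08 and 0.09 in WT.

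Of 12 heme breakdown and scavenging genes, the hemopexin receptor Lrp1 was at 1.78 times the sham level in cKO and 1.52 times in WT, where the call was lost in 11 of 26 alternatives. Flvcr2 passed in cKO at 0.585 times the sham level, but its groups overlapped and the call was lost in 14 of 26 alternatives. Cd163, the hemoglobin scavenger receptor, was at 2.02 times the WT level in cKO over both surgeries; it is also a macrophage marker. None of 11 NRF2 targets and regulators passed in cKO under TAC, and 1 was lower in WT, Me1 at 0.840 times, a call lost in 8 of 26 alternatives. Of 11 lipid peroxidation and ferroptosis genes, 4 were lower and 1 higher in cKO under TAC, where the shares of all tested genes were 12.4% and 14.2%. Gpx4, which reduces lipid peroxides, was at 0.765 times, Lpcat3 at 0.730 times, Dhodh at 0.706 times and Chac1 at 0.522 times the sham level. The Gpx4 call was lost in 8 of 26 alternatives. The higher gene, Ptgs2, was named after its values were seen, at a log2 fold change of 1.34 (adjusted p = 0.0488, edgeR) with overlapping groups, and over the alternatives the number of higher genes ran from 0 to 2 and of lower genes from 1 to 4. In WT 3 of 11 were lower, Lpcat3, Alox12 and Alox5, at 0.747, 0.515 and 0.610 times. Chac1 was higher in cKO than in WT, at 2.65 times the WT level after sham surgery and 2.26 times over both surgeries.

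The genes whose levels followed each other member most closely over the 16 libraries were Vwa1 for Tfrc (Pearson r = 0.88), Zfp770 for Slc11a2 (0.81), Pigt for Ftl1 (0.89), Tax1bp1 for Ncoa4 (0.87), Bcl7a for Slc40a1 (0.93), Armcx3 for Heph (0.87) and Limk1 for Hmox1 (0.93). With group means removed these were 0.67, 0.78, 0.91, 0.84, 0.73, 0.86 and 0.79. The next in order were Gabpb1 and Hmgn1 for Tfrc, Rai1 and Dll4 for Slc11a2, Crip2 and Eif1 for Fth1, Tmem115 and Tcf25 for Ftl1, Zfp870 and Eif4g1 for Ncoa4, Mapk9 and Clpx for Slc40a1, Ss18 and Shox2 for Heph, and Ugt1a7c and Zfp36l2 for Hmox1. The members did not move as a block: between pairs of members, r with group means removed ran from -0.78 for Fth1 and Ncoa4 to 0.64 for Heph and Hamp. All are descriptions over libraries that share tissue and preparation.

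Promoter windows from RefSeq (GRCm38.p6), 250 bases before to 50 after a start, were matched for 5 of the 9 members, with 9 windows for Hamp, Ftl1, Ncoa4, Tfrc and Fth1. They were searched on both strands for CACGTG, the E-box core known to be bound by TFEB. None of the 9 held it, and 7.15% of all 32851 windows did. The letters TGACNNNGC, the core of the element bound by NRF2, were in 1 window, of Ncoa4, and in 12.4% of all windows.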

How the data were processed

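RNA from left ventricles was sequenced as 16 libraries, 4 per group. The authors deposited 1 table of raw read counts per Ensembl gene ID with no normalization. Tools named in the submitters' processing notes are featureCounts 2.0.6, HISAT2 2.0.5, fastp 0.22.0, SAMtools 1.21 and FastQC, with build GRCm39; strand and multi-mapping settings are not given in the sources used here, so reads of overlapping and antisense genes cannot be told apart. Symbols were matched for 51880 of 57186 IDs. The members and gene lists were chosen with earlier results of these data known.

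The main test used edgeR 4.0.16 under R 4.3.3: filterByExpr, TMM, and a robust quasi-likelihood fit with 1 mean per group over 16 libraries (12 residual degrees of freedom; biological coefficient of variation 16.5%). The SE came from the F statistic. P-values were adjusted by Benjamini-Hochberg over 15206 genes per comparison. The model was tested on simulated counts. Likeness used log2 CPM with a prior count of 2. Ratios were compared with exact permutation tests in SciPy 1.17.1. Every member was named; of each list, up to 4 passing genes with the smallest adjusted p per comparison. Alternatives were DESeq2 1.42.0 size factors and Wald test, library totals, limma 3.58.1 voom, other count filters, no mitochondrially encoded genes, compared groups alone, a replicate block and leaving out each library.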

Additional observations from a re-analysis of the deposited data

Results flagged for a closer look

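The highest and lowest library of every group were compared with the others for the 9 members and both ratios, 44 groups in all. A gap to the nearest library above Dixon's 95% critical value for 4 samples marked a library as apart, which chance alone does in about 1 of 20 groups, and 3 groups were marked. Ftl1 reached 238 CPM in WT sham replicate 1, against 127 to 130 CPM in the other WT sham libraries. Hamp reached 8.22 CPM in WT TAC replicate 4, against 0 to 0.130 CPM in the other WT TAC libraries. Hamp reached 0.0632 CPM in cKO TAC replicate 2, which is 1 count, against 0 in the other cKO TAC libraries.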

How the results depend on the processing

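Of 1371 recomputed fold changes of members, 1328 stayed on their side of the threshold, 31 no longer passed, 11 newly passed and 1 that passed had the opposite sign; 63 changes of sign were among values that never passed. The value with the opposite sign was Hamp in WT TAC against WT sham, 0.35 with all libraries and -4.48 (adjusted p = 0.0144) without WT TAC replicate 4, within -4.48 to 0.91 when single libraries were left out. The number of members that passed in cKO TAC against cKO sham was 2, and 4 with library totals. In WT it was 4, 2 without the 2 libraries with the most atrial transcripts (WT TAC replicate 4 and WT sham replicate 3, an alternative chosen after seeing the data), and 2 to 4 when single libraries were left out. In cKO TAC against WT TAC it was 0, and 2 with the DESeq2 Wald test. In cKO sham against WT sham it was 0, and 0 to 1 when single libraries were left out. Over both surgeries it was 2, with 1 without a filter, 1 with a filter of 1 CPM in 4 libraries, 1 with limma voom, 1 without the 2 atrial-rich libraries and 1 to 3 when single libraries were left out. All ratios kept their direction; no p was computed for them with libraries left out, and with the replicate block 4 pairs allow no exact p under 0.125, so none could pass. Of 47 calls of named genes outside the members, 15 held in every alternative, 32 were lost in at least 1 and none changed sign while passing. Outside these, Tfrc newly passed in cKO TAC against cKO sham with library totals (0.77, adjusted p = 0.0228) and without cKO sham replicate 1 (0.78, adjusted p = 0.0439), and over both surgeries with DESeq2 (-0.53, adjusted p = 0.0222). Library totals moved the median of all genes to 0.20 in cKO and 0.11 in WT under TAC, and the share of higher among passing genes was 82.1% in place of 53.4% in cKO, 83.4% in place of 61.2% in WT, 49.6% in place of 33.6% in cKO TAC against WT TAC, and 61.4% in place of 46.5% over both surgeries.

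The number of all genes that passed was least stable in cKO TAC against WT TAC, with 271, 818 with DESeq2 and 13 to 912 when single libraries were left out. In sham it was 178, 534 with DESeq2 and as few as 59 without cKO sham replicate 4. In WT TAC against WT sham it was 2409, and 1234 without WT TAC replicate 1. Over both surgeries it was 1377, and 819 without cKO TAC replicate 2. The cause was not tested in any of these. Deviations of same-numbered libraries correlated at -0.160 to 0.229, and 4 of 24 pairs were over 0.1. Libraries with different numbers were not compared, so whether the replicate numbers pair the libraries was not settled. With the replicate block Tfrc newly passed in cKO TAC against cKO sham (0.62, adjusted p = 0.0437) and over both surgeries (-0.53, adjusted p = 0.0405). At 0 to 3 counts in 12 of 16 libraries, depth limits any statement on Hamp.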
